A study of Mus musculus with 5 samples.

Results

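The regions described here are HSF1 binding sites that were listed in mouse cortical neurons after NMDA and not in control neurons, and that lie at the end of a gene. Each is a peak of the NMDA list on chromosomes 1 to 19 or X. Members were chosen by their summit lying within 1000 bp of either annotated end of a protein-coding gene, with no overlap of even 1 bp with a peak of the control list. The rule kept 336 of the 3646 NMDA peaks, and these lie at 379 protein-coding genes. Presence in one list and absence from the other is therefore what defined the regions and is not a result. ChIP-seq, which sequences the DNA that an antibody to HSF1 pulls down with the protein, was done in wild-type primary neurons from the cortex of Swiss-Webster embryos at embryonic day 16, grown in culture to day 13. The control group was 2 untreated libraries. The treated group was 2 libraries from neurons given 50 µM NMDA, an agonist of ionotropic glutamate receptors, for 10 min and then kept for 20 min without drug. A single input library, labelled untreated, completed the set of 5.

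The authors deposited 1 merged peak list per condition, so no value below has a replicate error and no test between the conditions was possible. A region missing from the control list was not given a control value, which is not the same as a control value of 0. The fold enrichment of a peak is the authors' value on the scale of its own list and serves here only to describe and rank peaks. The depth of the libraries is unknown.

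HSF1 is held inactive in unstressed cells by chaperones. When unfolded proteins accumulate it forms trimers and binds heat shock elements, which are arrays of the 3-base unit GAA in alternating orientation, with 2 bases between units. Its best known targets encode chaperones, the proteins that help others to fold, and their partners. In neurons HSF1 has also been linked to synaptic maintenance and to protection from protein aggregation.

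Sequence could be read in the 300 bases around a RefSeq transcription start (250 before it to 50 after it, build GRCm38.p6), and 132 of the 336 regions overlapped such a promoter window. A complete element of 3 units, with all 9 fixed bases in place, was found in the windows of 4 of these regions. They are shown because they are the members in which both the peak and the exact element are visible, and 3 of the 4 lie at genes outside the chaperone list. Sequences run 5′ to 3′ along the strand of the named gene, and capitals mark the heat shock units.
Chordc1: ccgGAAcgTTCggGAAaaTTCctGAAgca
Fam149a: aatgagTTCcaGAAcaTTCtgGAAccgatg
Cntd1: gtgtggcaGAAgaTTCtgGAAataagc
Timm9: attaggctTTCtaGAAatTTCgacagatt
The Chordc1 array holds 5 units in a row (chr9:18292260-18292288, plus strand), and its middle lies 7 bp downstream of the start of Chordc1, which encodes an HSP90 co-chaperone. The Fam149a array holds 4 units (chr8:45382401-45382430, minus strand) and its middle lies 124 bp upstream of the start. Fam149a encodes a protein of little known function. The Cntd1 element (chr11:101279226-101279252, plus strand) lies 37 bp downstream of the start of a gene known from meiotic crossing over. The Timm9 element (chr12:71136857-71136885, minus strand) lies 196 bp upstream of the start of Timm9, a chaperone-like factor of the mitochondrial intermembrane space that was not in the chaperone list. The same element lies inside the neighbouring gene 2700049A03Rik, 23 bp downstream of its start, which is the nearer of the 2 starts to this peak. This peak had a fold of 2.31 and a −log10 q of 1.11, so its q was above 0.05. The peak summit was 6 bp from the middle of the Chordc1 array, 3 bp from that of Fam149a and 11 bp from that of Timm9. The Cntd1 element was the exception, at 168 bp from the summit of a peak that also lies at the start of the neighbouring gene Coa3.

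A further 15 regions had a best match of 8 of the 9 fixed bases in their windows. This looser match was adopted after the exact one had been counted, and the genes named for it were chosen after their values were seen. The 5 shown here are members with the near-match inside the peak, and the base that departs from the unit stands among the capitals.
Dnaja1: aaaaaagcCTCtaGAAaaTTCtacgaggc
Fkbp4: aaccgcttCTCtaGAAagTTCtccgctcc
Abcc5: aaggcagaGAAggTTCcaGACtgggcatc
Zfp12: tcaagccaTTCctGGAggTTCaaagtgag
Zfand2a: tgttgcctGACtgTTCtaGAAaataggcg
Dnaja1, an HSP40 co-chaperone (chr4:40722331-40722359, plus strand), and Fkbp4, an HSP90 co-chaperone (chr6:128438792-128438820, minus strand), hold the same 8 bases CTCtaGAA. The other genes lie outside the chaperone list. They are Abcc5, an exporter of the ATP-binding cassette family (chr16:20426538-20426566, minus strand), Zfp12, a zinc finger gene (chr5:143234947-143234975, plus strand), and Zfand2a, an arsenite-inducible protein that associates with the proteasome (chr5:139484672-139484700, minus strand). The element lay 19 bp from the summit at Fkbp4, 16 bp at Abcc5 and 31 bp at Zfand2a. It lay farther away at Dnaja1, 97 bp, and at Zfp12, 112 bp. For context, the 250 bases upstream of 2 non-chaperone starts are given, each with its element in capitals. Neither stretch overlaps an annotated gene.
Fam149a upstream, chr8:45382292-45382541, minus strand: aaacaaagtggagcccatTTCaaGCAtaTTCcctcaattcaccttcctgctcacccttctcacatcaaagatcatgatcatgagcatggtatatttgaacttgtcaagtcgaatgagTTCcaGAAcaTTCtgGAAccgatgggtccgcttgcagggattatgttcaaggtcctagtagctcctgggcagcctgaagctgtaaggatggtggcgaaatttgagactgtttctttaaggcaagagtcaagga
Zfand2a upstream, chr5:139484492-139484741, minus strand: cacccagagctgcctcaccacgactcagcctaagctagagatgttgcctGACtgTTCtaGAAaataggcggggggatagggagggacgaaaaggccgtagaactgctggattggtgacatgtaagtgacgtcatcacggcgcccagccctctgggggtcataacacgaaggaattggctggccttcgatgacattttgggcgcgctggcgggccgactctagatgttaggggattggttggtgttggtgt
The Fam149a stretch holds a second, incomplete element 226 bp upstream of the start, with 8 of the 9 bases in place. The Zfand2a stretch holds 1 near-match and also a complete cAMP response element, TGACGTCA.

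Most of the 336 regions were weakly enriched, and a small group stood far above the rest. Fold enrichment had a median of 2.71, quartiles of 2.52 and 3.12, and a range of 1.67 to 15.4. In all, 18 regions (5.36%) reached 4-fold, 86 lay between 3 and 4 and 232 lay under 3. Over all 3646 NMDA peaks 182 (4.99%) reached 4-fold, as did 4.57% of the NMDA-only peaks away from gene ends. A share of this size is therefore not particular to the regions. Of the 18 highest, 7 lay at chaperone genes and 11 did not. The 18 regions at chaperone genes had a median of 3.72 and the 318 others 2.69, which is also the median over all NMDA peaks. Peaks listed only in control at gene ends, 461 in number, had a median of 2.71 on their own scale and a maximum of 4.11, with 1 of them at 4-fold. The authors' q was under 0.05 in 266 of the 336 regions (79.2%, exact Clopper-Pearson 95% interval 74.4 to 83.4%, counting error only), against 76.3% of all NMDA peaks. All 18 regions at chaperone genes were under that q, as were 248 of the 318 others (78.0%).

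**Figure D1:**
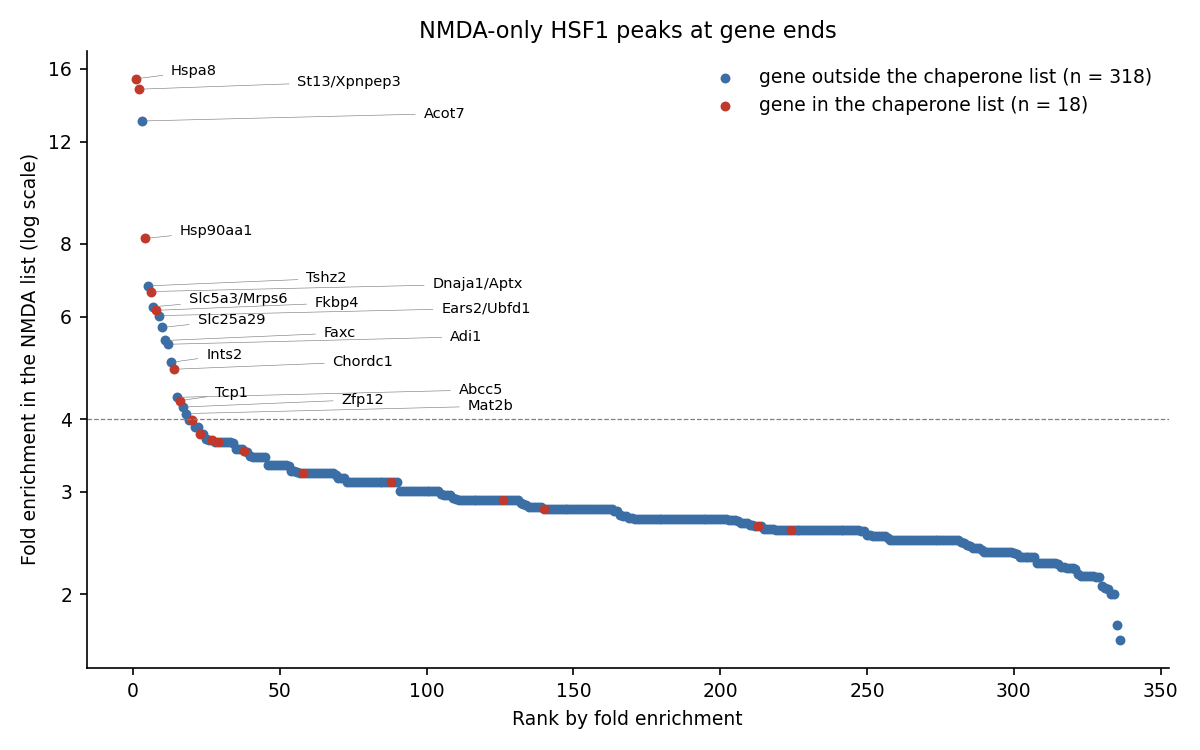
Fold enrichment in the NMDA list (y axis, log scale) of the 336 NMDA-only gene-end peaks against their rank (x axis), with red points for the 18 peaks at genes of the chaperone list and blue points for the 318 others. The 18 peaks above the dashed line at 4-fold fall steeply from 15.4, and the rest form a long shelf of repeated values around 2.7.

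Fold values repeated in equal steps. In the NMDA list 229 of the 336 regions (68.2%) had a fold within 0.01 step of a whole multiple of 0.108, and 32 of them had the same value of 2.69, which is 25 steps. The order of regions within the shelf therefore rests on differences of few steps, and the sources used here do not say what a step stands for.

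Among genes outside the chaperone list, the highest region was at Acot7, which encodes an acyl-CoA thioesterase abundant in neurons. Its fold was 13.01 (chr4:152177794-152178199), close to the 15.4 of Hspa8 and the 14.8 of St13, and its summit lay 86 bp outside the start end of the gene. That is the outermost annotated end, and no promoter window had its start within 1000 bp of the summit. The next non-chaperone region, at 6.78, was the only one of the 18 highest that lay at a known 3′ end. It lay 248 bp past Tshz2, which encodes a zinc finger and homeobox transcription factor (chr2:170072625-170073182). Slc5a3, the sodium-dependent carrier of the osmolyte myo-inositol, followed with 6.24 (chr16:92057745-92058460), 253 bp upstream of its start. The gene of the mitochondrial ribosomal protein Mrps6 starts at the same place, and the peak cannot be told apart between them.

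The region of 6.02-fold at chr7:122066489-122067523 lay at the starts of Ears2, the mitochondrial glutamyl-tRNA synthetase, and Ubfd1, a ubiquitin-like domain protein. Its summit was 135 bp downstream of the start of Ears2. Slc25a29, a mitochondrial carrier of basic amino acids, had 5.75 (chr12:108835864-108836450), 358 bp upstream. Faxc, named after a fly gene of axon development, had 5.46 (chr4:21930544-21931108), with a summit 193 bp from the annotated gene end. Adi1, an enzyme of methionine salvage, had 5.38 (chr12:28675376-28675773). Its summit lay 322 bp inside 1 end of the gene, and which end is the start was not known. These regions carried −log10 q values of 23.5 at Slc5a3, 21.8 at Ears2, 21.2 at Slc25a29, 20.7 at Faxc and 17.0 at Adi1, so each was far past the q of 0.05.

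The remaining 4 non-chaperone regions of at least 4-fold were at a subunit gene of an RNA-processing complex, a transporter, a zinc finger gene and a second gene of methionine metabolism. Ints2, a subunit of the Integrator complex, had 5.01 (chr11:86257636-86258168), 202 bp upstream of its start. Abcc5 had 4.36 (chr16:20426361-20426835), 174 bp upstream, and a second region of 3.16 farther along at the same end. Zfp12 had 4.19 (chr5:143234751-143235065), 314 bp upstream. Mat2b, the regulatory subunit of the enzyme that makes S-adenosylmethionine, had 4.09 (chr11:40694417-40694862), with a summit 668 bp inside the gene from its start end. As at Acot7, that is the outermost annotated end, and no promoter window had its start within 1000 bp.

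Below 4-fold, 8 further non-chaperone regions completed the 30 highest. Slc25a38, a mitochondrial glycine carrier, had 3.98. The shared start region of Coa3, a cytochrome oxidase assembly factor, and Cntd1 had 3.87, and so did Acsm5, a mitochondrial acyl-CoA synthetase. Fam149a had 3.76. The region inside Pop1, a subunit of ribonuclease P, had 3.70, with its summit 671 bp from the end of Pop1 and also within reach of Rida, a deaminase of reactive enamines. Cdkal1, a tRNA-modifying enzyme, had 3.69. The region at the start of Cenpl, a centromere protein gene, had 3.66, as did that at the start of the kinase gene Nek9. Of the 30 highest regions, 19 were thus at genes outside the chaperone list and 11 at genes in it. The limit of 30 splits a tie, since Kpna1, Fam102a and Slc35e2, none of them in the chaperone list, also had 3.66.

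The chaperone members give the scale against which these stand. Hspa8, the constitutive HSP70, had 15.4, and St13, its HSP70-interacting partner, 14.8 in a region shared with the start of Xpnpep3. Hsp90aa1, the inducible cytosolic HSP90, had 8.17. Dnaja1 had 6.63 and its neighbour Aptx, a DNA end-processing factor, lies at the same region. The HSP90 co-chaperone genes were lower, with 6.15 at Fkbp4, 4.87 at Chordc1, 3.98 at Stip1 and 3.66 at Ptges3. Tcp1, a subunit of the cytosolic chaperonin, had 4.30, and Ubb, a polyubiquitin gene counted in this list, 3.68. Hsp90ab1, the constitutive HSP90, had 2 regions, of 3.76 and 3.53. Hsf1 itself had a region of 2.80, with a −log10 q of 2.37, within reach of an end of the neighbouring gene Bop1 too.

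A single gene had 2 NMDA-only regions in 5 cases, namely Hsp90ab1, Abcc5, Aptx, Zeb2 and Atg5. Aptx had 6.63 and 2.59 at the same end. Zeb2, a repressor of epithelial genes and a factor of cortical neuron development, had 2.90 at its start and 2.37 at its other end. Atg5, required for autophagosome formation, had 2.47 and 2.15 on either side of its start. All 4 regions of Zeb2 and Atg5 were thus under 3-fold.

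Over all 21631 protein-coding genes, 1.75% had an NMDA-only gene-end region and 2.39% a control-only one. The chaperone list stood far from that background, with 17 of its 83 genes carrying an NMDA-only region (20.5%, 12.4 to 30.8%) and 4 a control-only one. Chaperones were known as HSF1 targets and as the leading genes of these data when the list was made, so their count is not independent evidence. In the other lists, apart from cell type markers with 9 or fewer genes, the share was at most 4.67%. Of the 362 non-chaperone genes, 283 belonged to none of the lists, and in that remainder of 17212 genes the share was 1.64%.

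**Figure D2:**
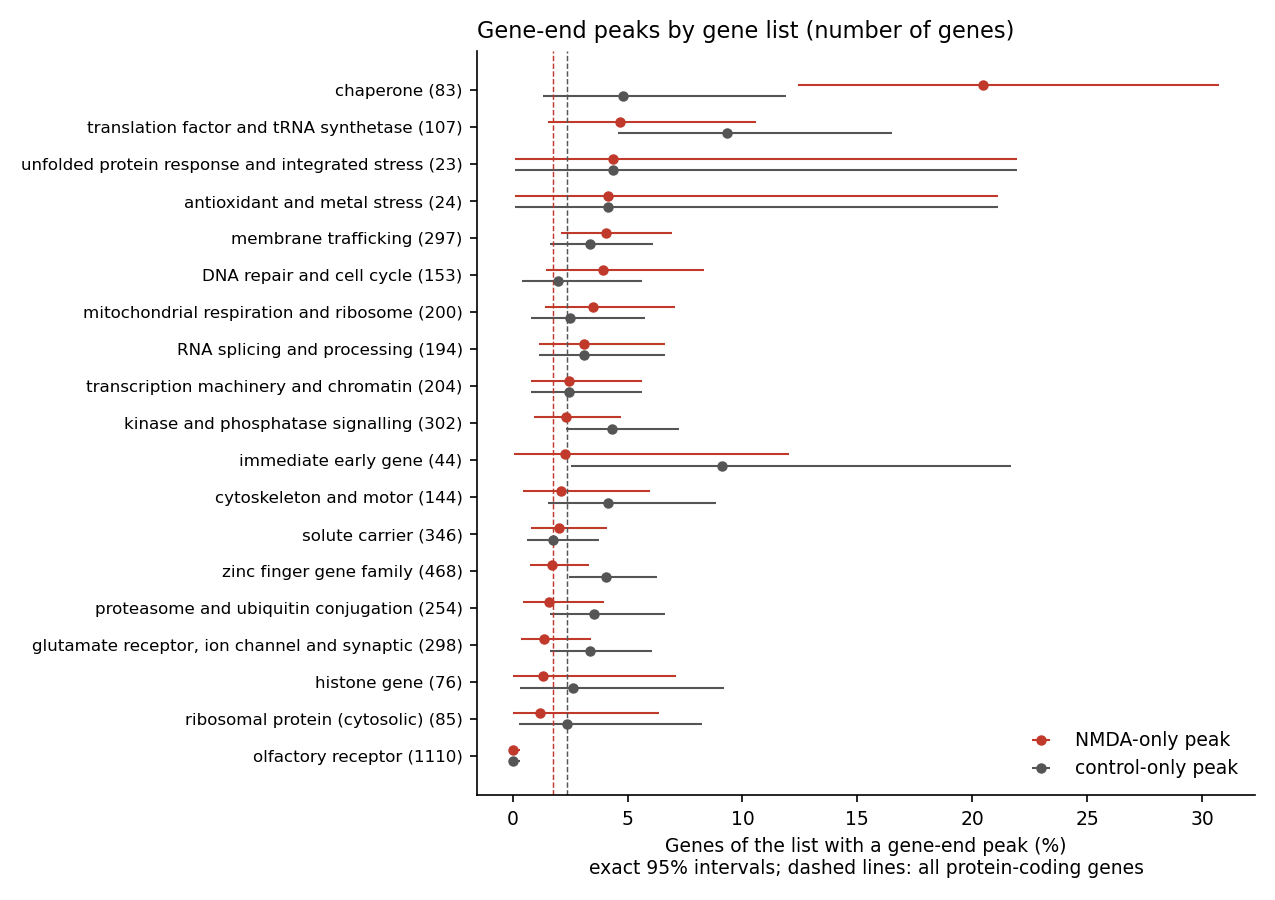
Percent of the genes of each list (x axis) that have an NMDA-only (red) or control-only (grey) gene-end peak, with exact Clopper-Pearson 95% intervals. Numbers in brackets are genes per list. The chaperone list is at 20.5% for NMDA-only peaks, and the red points of all other lists shown lie under 5%.

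The list of membrane trafficking and autophagy genes had 12 of 297 (4.04%, 2.10 to 6.95%) with an NMDA-only region and 10 with a control-only one. This was the only other list whose NMDA-only interval lay above 1.75%, and its control-only share was 3.37%. Its 6 regions of highest fold were at Arl2bp (3.46), a partner of the small GTPase Arl2, Atg16l2 (3.33), an autophagy factor, Vps26a (3.12), a retromer subunit, Snx30 (2.59), a sorting nexin, Rab21 (2.52), an endosomal GTPase, and Atg5 (2.47), with which Arf2 was tied. Of these 6, only the first 3 were above the upper quartile of all NMDA peaks, 3.01. Atg5 and Arf2 (−log10 q of 1.15) and every gene of the list with a lower fold had a q above 0.05. The count of 12 thus rests in large part on such regions.

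Genes of translation factors and tRNA synthetases had 5 of 107 NMDA-only regions (4.67%, 1.53 to 10.6%) and 10 control-only ones. Ears2 (6.02) was the highest. Eif4a2 (2.65), an RNA helicase of translation initiation, Sars (2.58), the cytosolic seryl-tRNA synthetase, and Pars2 (2.26), the mitochondrial prolyl-tRNA synthetase, were on the shelf. The Pars2 region had a q above 0.05. Nuclear genes of mitochondrial respiration, import and ribosomes had 7 of 200 (3.50%, 1.42 to 7.08%) against 5 in control. Mrps6 (6.24) shared the region of Slc5a3, and the next were Ndufs1 (2.90), a complex I subunit, Timm13 (2.69), and Mrpl13, Mrpl14 and Mrpl21, each at 2.47. The regions of Mrpl13, Mrpl14 and Mrpl21 each had a q above 0.05. These and the Timm13 region also lay at an end of a neighbouring gene. Timm9, with a complete heat shock element in its promoter window, had 2.31 and a q above 0.05.

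The solute carriers had 7 of 346 (2.02%) against 6 in control. Slc5a3, Slc25a29 and Slc25a38 led, followed by the monocarboxylate carrier family genes Slc16a14 (3.24) and Slc16a1 (2.90) and the astrocytic glutamate transporter gene Slc1a2 (2.80). The seventh, Slc7a6os, matched by name and is not itself a carrier. Kinase and phosphatase genes had 7 of 302 (2.32%) against 13 in control. The highest were Pik3r2 (3.33), a regulatory subunit of phosphoinositide 3-kinase, Prkar2a (3.23), a regulatory subunit of protein kinase A, and Ppp1r14c (2.80), an inhibitor of protein phosphatase 1. Ppp5c, an HSP90-associated phosphatase, and Pik3c2a both had 2.58, and Stk32c had 2.48. Zinc finger genes had 8 of 468 (1.71%) against 19 in control, and after Zfp12 (4.19) their values ran from 3.01 at Zfp617 through 2.80 at Zfp64, 2.70 at Zfp37, 2.57 at Zbtb41 and 2.47 at Zfp78 downwards. Zfp78 and the zinc finger genes of lower fold had a q above 0.05.

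Splicing and RNA processing genes had 6 of 194 (3.09%) and the same number in control. They were Rbm14 (3.01), Snrpa (2.90), Prpf4b (2.80), Hnrnpa2b1 (2.69), Cpsf4 (2.52) and Rbm44 (2.47). The regions of Rbm14, Snrpa, Hnrnpa2b1 and Cpsf4 also lay at the start of a neighbouring gene and cannot be told apart from it. Genes of the transcription machinery and chromatin had 5 of 204 (2.45%) and 5 in control. They were Polr3b and Taf6 (both 3.12), Taf15 and Gtf3c1 (both 2.69) and Kat8 (2.31). The same sharing of a region with a neighbouring start held for Taf6 and Gtf3c1. DNA repair and cell cycle genes had 6 of 153 (3.92%, 1.45 to 8.34%) against 3 in control. Ccnb2, a mitotic cyclin, and Cdkn2aipnl each had 2.90 and Rad54b, a recombination factor, 2.58. Cdc40 (2.90) matched by name and encodes a splicing factor. All of these regions lay on the shelf of weak values, and those of Rbm44 and Kat8 had a q above 0.05.

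Among neuronal and stress genes, the lists with NMDA-only regions held 1 to 4 such genes each. Glutamate receptor, ion channel and synaptic genes had 4 of 298 (1.34%, 0.367 to 3.40%), an interval that holds the background of 1.75%, against 10 in control. They included Gad1 (3.52), which encodes a GABA-synthesising enzyme and was also the only neuron marker with such a region, Grin3a (3.12), an NMDA receptor subunit, and Kcnq5 (2.47), a potassium channel. The Kcnq5 region had a q above 0.05. Immediate early genes, which neurons induce within minutes of activity, had 1 of 44 (2.27%, 0.0575 to 12.02%), Egr1 (3.01), against 4 in control. Mt1, a metallothionein gene, had 2.15 and was the sole antioxidant and metal stress gene of 24 (4.17%, 0.105 to 21.1%), against 1 in control. The Mt1 region had a −log10 q of 0.557, so its q was above 0.05. Atf4, the effector of the integrated stress response, had 2.90 and was the sole gene of 23 in its list (4.35%, 0.110 to 21.9%), against 1 in control. With 1 gene each, the intervals of these 3 lists hold the background of 1.75%.

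Proteasome and ubiquitin conjugation genes had 4 of 254 (1.57%) against 9 in control, at Ube2g2 (3.16), Fbxl15 (2.85), Psmg4 (2.80) and Psme2 (2.37). The cytoskeleton and motor list had 3 of 144, at Ank3 and Kif5c (2.68 and 2.69) and Dctn6 (2.52), against 6 in control. Cytosolic ribosomal protein genes had 1 of 85, Rps27 (2.35), and histone genes 1 of 76, H2bc7 (2.80). The regions of Psme2 and Rps27 had a q above 0.05. These and the Fbxl15 region also lay at the start of a neighbouring gene. None of 1110 olfactory receptor genes had an NMDA-only region, which allows a share of up to 0.332% (exact 95% upper bound). Of the markers of other cells a cortical culture could hold, Slc1a2 was the only astrocyte marker of 7 with a region, and none of 6 microglial or 8 oligodendrocyte-lineage markers had one. A binding site at a marker gene is a position and gives no measure of the cells present.

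Where the strand of the gene was known, most regions lay at its start. This held for 231 of 272 regions (84.9%, 80.1 to 89.0%), against 344 of 376 control-only gene-end peaks (91.5%, 88.2 to 94.1%). The other 41 lay at the 3′ end, as at Tshz2, and the strand was unknown for 64. In 48 regions (14.3%) the summit was within reach of 2 protein-coding genes, and 32 of these lay at 2 starts. The 6 highest of this kind were St13 with Xpnpep3, Dnaja1 with Aptx, Slc5a3 with Mrps6, Ears2 with Ubfd1, Coa3 with Cntd1, and Pop1 with Rida. The summit lay inside the nearest gene in 185 regions (55.1%), against 62.7% of control-only ones. A noncoding gene had an end within 1000 bp of 51 regions (15.2%), and it was nearer than the protein-coding end in 26.

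Of the strongest regions, most of the few with a known position lay upstream of the start. Among the 12 regions of at least 4-fold near a start of known position, 9 had the summit upstream, with a median position of −211 bp. Among the 212 weaker ones 99 (46.7%) were upstream, with a median of +50 bp. Over all 224 the median was +13 bp with quartiles of −270 and +261 bp, and 105 summits (46.9%) were within 250 bp. Control-only regions, 334 in number, had a median of +95 bp, with 39.2% within 250 bp. Exon and intron were not annotated in the reference used.

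**Figure D3:**
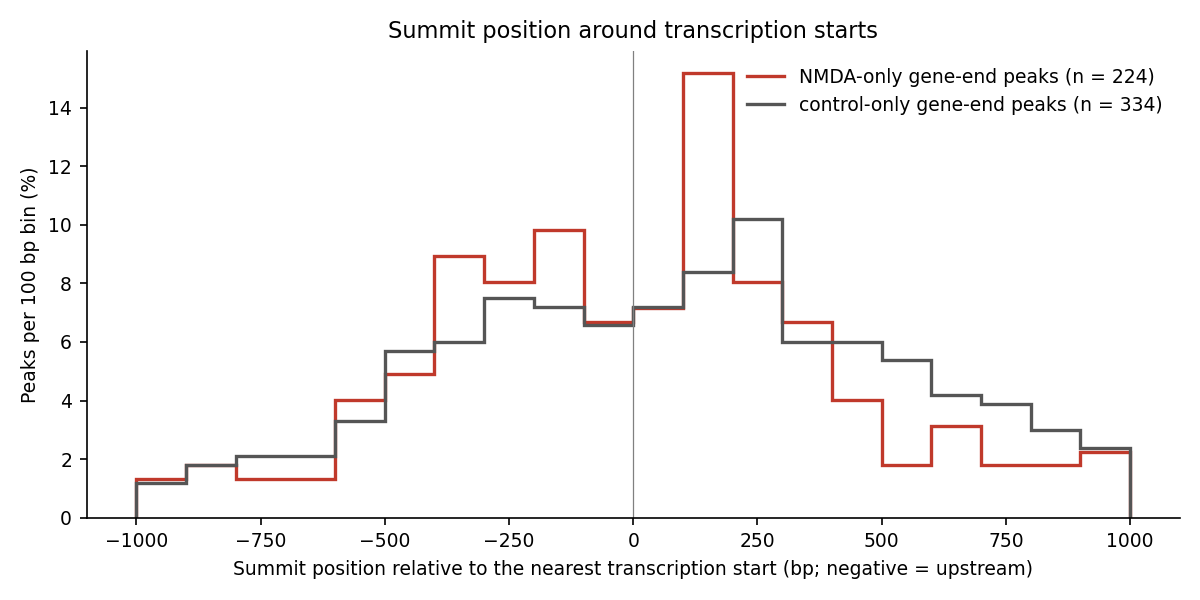
Position of the peak summit relative to the nearest annotated transcription start (x axis, bp, negative is upstream) as the percent of peaks per 100 bp bin (y axis), for 224 NMDA-only (red) and 334 control-only (grey) gene-end peaks. Both spread over the whole 1000 bp on either side; 20.5% of NMDA-only and 29.3% of control-only summits lie beyond 500 bp.

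Complete heat shock elements were rare in the windows of the regions, and near-matches were more frequent. Of the 132 regions that overlap a promoter window, 4 had the exact 3-unit element in a window (3.03%, 0.832 to 7.58%). This compares with 2 of 168 control-only regions (1.19%) and 110 of all 21045 protein-coding promoter windows (0.523%). At 8 or more of the 9 bases the numbers were 19 (14.4%, 8.89 to 21.6%), 8 (4.76%, 2.08 to 9.17%) and 1395 (6.63%). The intervals of the first 2 shares overlap at their edges. These counts cover the whole windows. A match lay inside the peak itself in 15 of the 19 NMDA-only and 5 of the 8 control-only regions. The regions' windows were richer in CpG than most, with a median of 23 CpG dinucleotides against 13 in all windows and 22 in control-only ones. In the 6175 windows at least as rich in CpG as that, a comparison added after seeing the data, the 2 shares were 0.421% and 3.24%. These windows are not matched to the regions, since their medians were 30 CpG and 68.7% GC, against 23 and 61.2%. A region may overlap more than 1 window, as 16 of the 132 and 24 of the 168 did, and then has more sequence to match.

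Matches were more frequent among the regions of high fold, though few of these had a window. Of 11 regions of at least 4-fold with a window, 5 had 8 or more bases (45.5%, 16.7 to 76.6%), at Dnaja1, Fkbp4, Chordc1, Abcc5 and Zfp12. Of 121 weaker ones 14 did (11.6%, 6.47 to 18.7%), so the intervals overlap. Outside the chaperone list 15 of 122 did (12.3%, 7.05 to 19.5%), and within it 4 of 10. Acot7, Tshz2, Hspa8 and Hsp90aa1 overlapped no window, so their sequence was not read. Slc5a3 and Slc25a29 had a best match of 6 bases and Ears2 of 7, in windows that cover only part of their wide peaks.

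**Figure D4:**
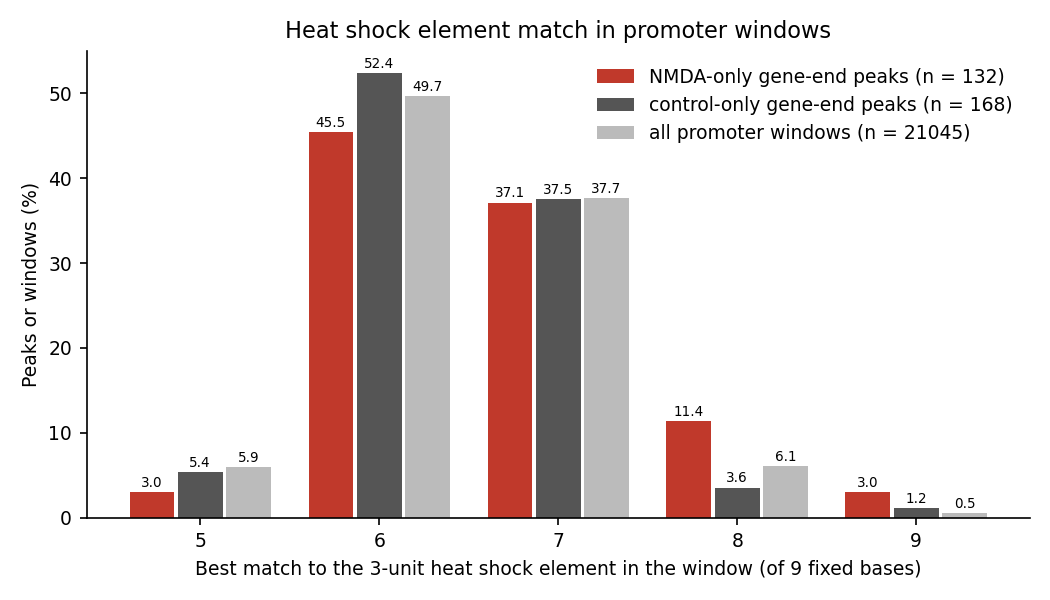
Percent of NMDA-only gene-end peaks (red, n = 132), control-only gene-end peaks (dark grey, n = 168) and all promoter windows (light grey, n = 21045) by their best match to the 3-unit heat shock element, from 5 to 9 of its 9 fixed bases. For peaks, the whole promoter windows that they overlap were searched. The red bars exceed both others at 8 and 9 bases, and at 6 bases the red bar is the lowest (45.5, 52.4 and 49.7%).

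Distances to the summit were compared for matches of 8 or more bases. In the 15 NMDA-only regions that hold one inside the peak, the nearest lay a median of 53 bp from the summit (range 0 to 168 bp), and 7 lay within 50 bp. In 5 such control-only peaks the median was 111 bp, and 2 lay within 50 bp. Where the summit itself was in a promoter window, 12 of 57 NMDA-only regions (21.1%) and 7 of 70 control-only ones (10.0%) had 8 or more bases. These 2 shares have overlapping intervals (11.4 to 33.9% and 4.12 to 19.5%).

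Long runs of units were counted after the elements above had been seen. Of the 21045 windows, 110 held at least 3 units in a row, 6 at least 4 and 1, that of Chordc1, 5. The 6 windows were those of Chordc1, Fam149a, Hspd1, Hspe1, Arpc2 and Kctd18. The windows of Chordc1 and Fam149a overlapped an NMDA-only region, and those of the neighbouring mitochondrial chaperonin genes Hspd1 and Hspe1 a peak found in both lists, with 13.98 in NMDA and 4.21 in control. Arpc2 and Kctd18 had no peak in either list. Of the 104 windows with exactly 3 units, 7 overlapped an NMDA peak (6.73%) and 5 a control peak, against 0.927% and 1.23% of all windows.

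The other motifs were searched, on both strands, in the whole promoter windows that overlap a region, and not in the peak sequence itself. Their shares had overlapping intervals in NMDA-only and control-only regions. The 2-unit heat shock element GAANNTTC or TTCNNGAA is part of the 3-unit one. It was in the windows of 17.4% (11.4 to 24.99%) of NMDA-only and 8.93% (5.08 to 14.3%) of control-only regions and in 13.8% of all windows. The cAMP response element TGACGTCA was in 6.06, 4.76 and 2.26% of the same 3 sets. The ETS motif CCGGAAG was in 22.0, 20.8 and 11.7%, the E-box CACGTG in 12.9, 14.9 and 7.91%, and the SP motif GGGCGG in 65.9, 65.5 and 46.7%. The CCAAT box was in 33.3, 39.3 and 38.5% and the TATA box TATAAA in 7.58, 7.14 and 12.7%. The AP-1 motif TGANTCA was absent from the windows of all 132 NMDA-only regions (upper bound 2.76%). It was in the windows of 1.19% of control-only regions and in 7.04% of all windows. Against the 6175 CpG-rich windows, which exceed the members in median CpG and GC, most of these contrasts shrank or turned. There AP-1 was in 2.54%, within the members' upper bound, SP in 83.6%, ETS in 19.7%, the E-box in 11.8%, the CCAAT box in 32.1%, the TATA box in 3.37%, the cAMP response element in 3.94% and the 2-unit element, whose contrast widened, in 7.71%. A match is a description of the letters in these windows and does not show binding.

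The rule removed every region that overlaps a control peak, so only distances beyond an overlap remain. A control peak was within 1 kb of 13 of the 336 regions, within 10 kb of 25 and within 100 kb of 100, and the median distance was 222 kb. Of the 461 control-only gene-end peaks, 17, 31 and 144 had an NMDA peak within the same distances, with a median of 221 kb. The spacing was thus not particular to the regions. The closest among genes outside the chaperone list were the regions of Cenpl (89 bp), Abcc5 (90 bp), Cdc40 with Wasf1 (125 bp) and Omg (161 bp), an oligodendrocyte and neuronal surface protein gene. For Abcc5 the NMDA region of 4.36 and the control peak of 2.57 had summits 465 bp apart. In all, 20 genes had both an NMDA-only and a control-only gene-end peak, so for these a gene-level count does not separate the conditions.

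The limits of the rule passed through ordinary regions. The members nearest the 1000 bp limit were Apbb2 (992 bp, 2.58), Igsf9b (975 bp, 2.58) and Slitrk5 (972 bp, 3.33), and just outside it were Gpr85 (1007 bp, 2.80), Pom121l2 (1012 bp, 2.80) and Creb1 (1013 bp, 2.82). The gene-end peaks that counted as shared by the least overlap were at Zfp142 with Bcs1l (9 bp), Gtf3c4 with Ddx31 (41 bp) and Cers6 (67 bp). The members of lowest fold were Zfp560 (2.00), Bahcc1 (1.77) and Mppe1 (1.67), and each had a q above 0.05.

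On the autosomes, the share of protein-coding genes with a region ran from 1.15% on chromosome 6 to 2.80% on chromosome 10. Chromosome X had none among 966 genes, and only 5 NMDA peaks of any kind.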

How the data were processed

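Gene-end regions were taken from 2 deposited peak lists, 1 per condition. FastQC, Trimmomatic, BWA, SAMtools and MACS2 and the builds mm10 and GRCm38.p6 are named without role or version, per the submitters' processing notes. The sources used here do not say how the 2 libraries of a condition were merged. Each deposited peak has a score, which was not used for ranking. The authors' fold enrichment is a ratio over a background value that the sources used here do not describe. The authors gave q as −log10 values. The ChIP libraries within a group are biological replicates, per the labels.

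Peaks were assigned to the annotated ends of 21631 RefSeq protein-coding genes on GRCm38.p6, matched by position. That table has no strand, so start and 3′ end were told apart only for genes in RefSeq's table of promoter windows, which also gave all sequences. Distances to a start refer to the window's start, which can differ from the outermost gene end. Intervals are exact Clopper-Pearson 95% and cover counting error only. Motifs and positions were computed with Python 3.11.15, pandas 2.3.3, numpy 2.4.6 and scipy 1.17.1, and the steps were tested on simulated data with known answers. No p-value was computed, because peaks and genes are not replicates.

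The members, the 23 gene lists and the rules were chosen with earlier results of these data known. Genes named were the 30 members of highest fold, members of each list (up to 6 by fold), the 3 members on either side of the 1000 bp limit, the 3 of lowest fold, up to 6 shared by 2 genes, genes with 2 members, and non-chaperone members with a complete heat shock element. Some listed genes are not reported here by name and stay in the counts. Alternatives changed the distance to a gene end, the overlap that makes a peak shared, and the peak threshold.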

Additional observations from a re-analysis of the deposited data

How the results depend on the processing

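Of 38 alternatives to the reported values, 30 stayed within the limits set by the value's own interval, its quartiles or a factor of 1.5. With summits within 500 or 2000 bp of a gene end the count was 236 or 459, and the chaperone share ran from 18.1 to 24.1% over all settings except the 4-fold limit. Keeping only peaks of at least 4-fold left 18 regions with a median fold of 5.89, of which 92.9% (13 of 14) lay at a start. Under that limit 8.43% of the chaperone list had a region, the exact heat shock element was in the windows of 9.09% (1 of 11) and in the promoters of 5.56% of genes (1 of 18). The lower count and chaperone share and the higher median follow from the limit itself. The other shares rest on few regions or genes, and why they moved was not tested. Accepting 8 of 9 fixed bases, an alternative chosen after seeing the data, raised the window share to 14.4% and the share of genes whose promoter holds an element from 2.57% to 9.65%. The exact share of 2.57% (8 of 311 genes, 1.12 to 5.01%) compares with 0.948% (4 of 422, 0.259 to 2.41%) of genes with a control-only peak. Over all protein-coding genes with a window it was 0.602% (104 of 17274). No such comparison was made for the 9.65%.

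No paired analysis was possible because each list merges the libraries of its condition, and leaving out a library was not run for the same reason. Depth is unknown, and absence from the control list gives no control level.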

Other observations

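Genes with both an NMDA-only and a control-only gene-end peak included several whose 2 summits lie within 1 kb of each other. Besides Abcc5, examples are Cadm1 (folds of 3.12 for NMDA and 2.98 for control, 600 bp apart), Phtf1 (2.67 and 2.10, 763 bp apart) and Pop1 with Rida (3.70 and 2.96, 786 bp apart). Stxbp5, which encodes the syntaxin-binding protein tomosyn, had an NMDA-only region of 2.37 and a control-only peak of 3.16 at its opposite ends, 145369 bp apart. These genes were chosen after their values were seen.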
